A study of Drosophila melanogaster with 9 samples.

Results

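Brains of PGRP-LB mutant flies that had been fed Ecc15, a strain of the plant pathogen Erwinia carotovora that elicits immune responses in the fly gut, were set against brains of wild-type flies that had not. Poly(A) RNA was sequenced from pools of 20 brains of adult females aged 4 to 6 days, in 3 libraries per group. Every gene ID with a mean of at least 1 normalized count over the 6 libraries was included, which left 13384 of 17562 IDs. The mutant group (PGRP-LB Ecc15) carried a mutation in PGRP-LB and had been exposed orally to Ecc15 for 16 h per the protocols, while the design text gives a longer diet. The wild-type group (WT control) was unexposed. The column headers call the mutant PGRP-LBD, and neither the allele nor the genetic background of the lines is given in the sources used here. With no unexposed mutant among the 9 libraries used here, genotype and exposure changed together and cannot be told apart. The 3 libraries of exposed wild-type brains (WT Ecc15) are used here only to place genes beside the main comparison. Their values were put on the scale of the mutant table through the shared controls.

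Peptidoglycan is the polymer of the bacterial cell wall. In flies its DAP-type form, typical of Gram-negative bacteria such as Ecc15, is sensed by the receptors PGRP-LC and PGRP-LE, which signal through the adaptor Imd to the NF-κB factor Relish and switch on genes for antimicrobial peptides. PGRP-LB is an amidase that cuts peptidoglycan into a form that no longer signals, and is itself a target of the pathway. Pirk, PGRP-LF and the amidases of the PGRP-SC group are further brakes on Imd. The series asks how peptidoglycan reaching the brain alters transcription there.

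Normalized totals were 25.3 to 27.8 M per library, and the counted reads behind them were estimated at 24.5 to 28.3 M, fewest in PGRP-LB Ecc15 S2. The neuronal genes elav, nSyb, Syt1 and brp, which encode an RNA-binding protein and 3 synaptic proteins, were at 5457 or more in all 9 libraries and none was called different. The glial genes repo and moody stood at 3865 to 4909 and 1678 to 2382 in the 6 libraries compared and were not called. The glial markers alrm and wrapper were called lower, as given below. The germline genes vas and nos stood at 0 to 12. The median difference per gene between 2 libraries of one group was 0.178 to 0.269 on the log2 scale, and between a mutant and a control library 0.321 to 0.379.

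The targeted gene itself was expressed in the mutant. PGRP-LB lies at 11452849 to 11460552 of chromosome 3R on the minus strand (BDGP6). It had 164, 120 and 151 normalized counts in WT control S1, S2 and S3 and at 687, 1359 and 721 in PGRP-LB Ecc15 S1, S2 and S3. All mutant libraries lay above all controls (log2 change 2.60, SE 0.27, adjusted p = 0.00134), so gene-level counts give no check of the genotype. WT Ecc15 libraries held 329, 257 and 220. CG17230, which overlaps the gene on the other strand, was lower in the mutant libraries (log2 change -0.52, SE 0.10, adjusted p = 0.0149; lost without WT control S2), and whether the counting used strand is not stated. A second gene separated the mutant from all 6 wild-type libraries. The eye pigment transporter gene white (w, chromosome X, 2790599 to 2796466, minus strand) stood at 5, 6 and 13 in the controls and 4, 5 and 7 in WT Ecc15, but reached 11962, 18926 and 11128 in PGRP-LB Ecc15.

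In all, 1292 genes were higher and 838 lower in the mutant brains (limma on log2 of the value plus 1, adjusted p under 0.05), which is 9.65% and 6.26% of the genes tested. The median change over all genes was 0.01 on the log2 scale, and 70.0% of genes lay within 1.5-fold. Higher calls were the larger ones, with a median size of 1.62 log2 units against 0.58 for lower calls. Among genes called higher 839 changed at least 2-fold and 248 at least 8-fold, and among those called lower 243 and 38. Of the calls 60.7% were higher as deposited, 53.7% after rescaling without the 100 most abundant genes and 44.8% after quantile normalization, which moved the median of all genes by -0.10. For every called gene all 3 libraries of one group lay above all 3 of the other. Over all genes tested the groups did not overlap in 18.8% of genes with the mutant above and in 16.9% with it below. At an unadjusted p under 0.05 there were 2347 higher and 1866 lower genes. With each library left out in turn 607 higher and 316 lower genes kept their call every time. The number called higher dropped to 776, 742 and 787 without PGRP-LB Ecc15 S1, S2 and S3, and the number called lower to 387 without WT control S2 and to 422, 430 and 416 without the same mutant libraries.

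**Figure D1:**
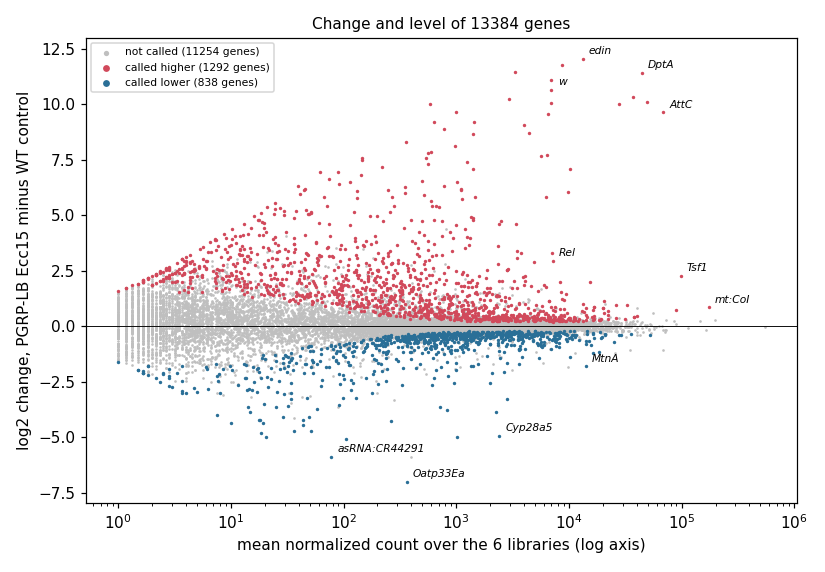
Each point is 1 of the 13384 genes, with its mean normalized count over the 6 libraries (log axis) against its log2 change, PGRP-LB Ecc15 minus WT control. Red points (1292) and blue points (838) were called higher and lower. The peptide genes edin, DptA and CecA2 and the pigment gene w are among the highest points, and Oatp33Ea, at -6.99, is the lowest point.

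The antimicrobial peptides controlled through Imd, short secreted proteins that kill bacteria, changed as a whole. All 13 measured members were called higher, where 9.65% of all genes were, with a median log2 change of 10.01, and the count was 13 with any 1 library left out. DptA, a Diptericin, stood at 26, 39 and 25 in the control libraries and 73866, 134159 and 59179 in the mutant ones (log2 change 11.43, SE 0.31, adjusted p = 6.27e-06). Its sister DptB went from 59, 68 and 140 to 81302, 147874 and 68308 (log2 change 10.13, SE 0.39, adjusted p = 2.25e-05). For both Diptericins PGRP-LB Ecc15 S2 was highest and no mutant library came near a control library. AttC, an Attacin active mainly against Gram-negative bacteria, reached 90888, 209523 and 110972 against 179, 143 and 159 in the controls (log2 change 9.64, SE 0.29, adjusted p = 9.14e-06), one of the largest gains in normalized counts of any gene. Drosocin (Dro) reached 58810, 108363 and 53544 from control values of 42, 66 and 56 (log2 change 10.32, SE 0.28, adjusted p = 6.27e-06). The Cecropins, peptides that open membranes, started near 0. CecA1 rose from 4, 3 and 10 in the controls to 12527, 18561 and 10514 in the mutants, CecA2 from 2, 1 and 1 to 6626, 8862 and 4399 and CecC from 5, 4 and 9 to 2474, 3459 and 2417. CecA1 and CecA2 are near-identical copies, as are AttA and AttB, so their separate values are uncertain.

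The remaining Imd-type peptides moved alike. AttA rose to 9539, 11531 and 5465 from 11, 24 and 27, AttB to 59603, 70970 and 35514 from 34, 36 and 105 and the intracellular Attacin AttD to 18974, 19113 and 13573 from 2, 2 and 12. Defensin (Def) stood at 15618, 15896 and 7808 against 11, 12 and 27. Metchnikowin (Mtk), which also acts on fungi, had 7894, 21655 and 8936 against 34, 91 and 48 (log2 change 7.74, SE 0.47, adjusted p = 0.000137). Stacl, which overlaps Mtk on the same strand and makes its value uncertain, stood at 17011, 19451 and 21616 in controls and 19960, 17872 and 19995 in mutants and was not called. PGRP-LB Ecc15 S2 had the highest value of the 3 mutant libraries for each of these genes except CecB, at 3046, 1722 and 1247 against 1, 1 and 2 in the controls.

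The same genes were intermediate in exposed wild-type brains. DptA stood at 3098, 2385 and 860 in WT Ecc15 and lay below the mutant by 5.50 log2 units (adjusted p = 7.53e-05, limma over all 9 libraries). AttC stood at 8994, 10887 and 1664 (log2 difference 4.55, adjusted p = 0.00114) and CecA1 at 425, 378 and 123 (log2 difference 5.63, adjusted p = 0.000107). All 13 were called higher in PGRP-LB Ecc15 than in WT Ecc15, where 9.85% of all genes tested were called higher and 7.12% lower. Summed over the 13 genes the peptides made up 0.00162% to 0.00243% of the normalized total in the controls, 0.035% to 0.127% in WT Ecc15 and 1.43% to 2.78% in the mutant libraries.

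**Figure D2:**
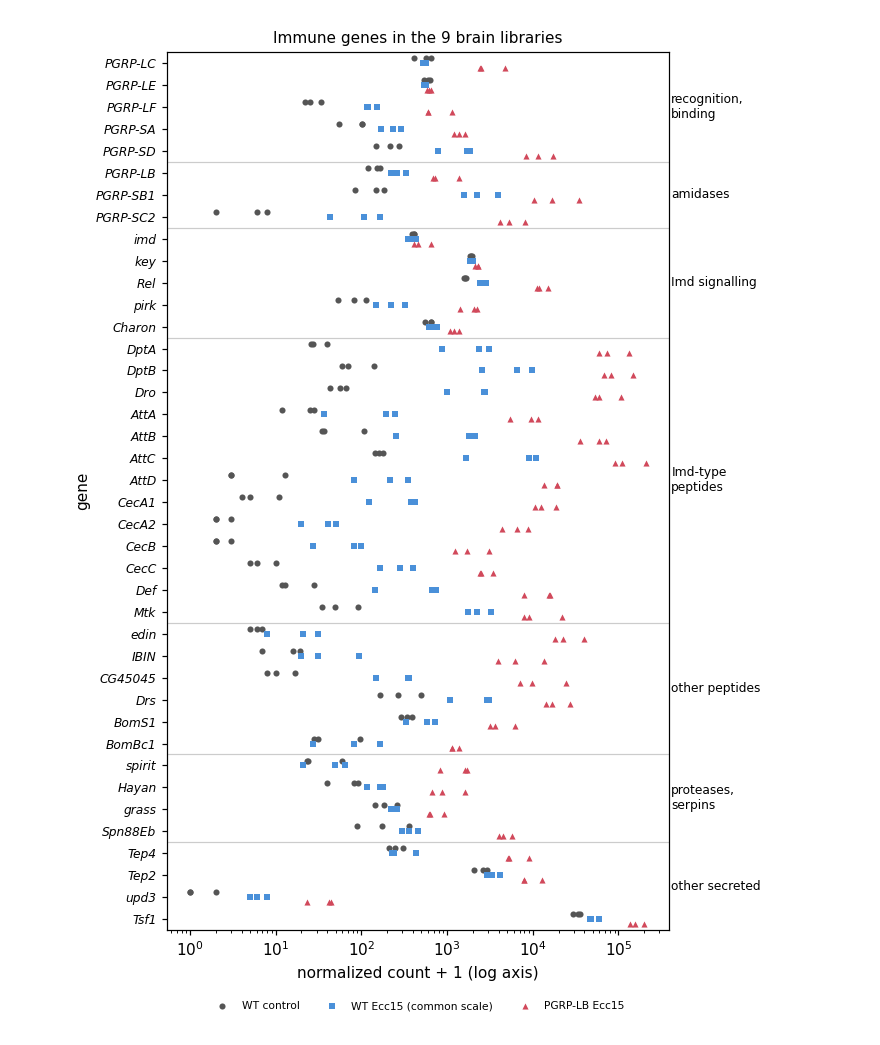
Normalized counts plus 1 (log axis) of immune genes grouped by role, with 1 point per library. Grey circles are WT control, blue squares WT Ecc15 on the common scale and red triangles PGRP-LB Ecc15. For the 13 Imd-type peptides the red triangles lie above all other points, and for PGRP-LE the groups overlap.

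Infection-induced peptides outside this family included the largest change of all. edin, which is induced by infection through Imd, stood at 5, 6 and 4 in the controls, 30, 20 and 7 in WT Ecc15 and 22579, 39169 and 18065 in the mutant libraries (log2 change 12.05, SE 0.28, adjusted p = 6.27e-06). It overlaps the transporter gene Oatp74D on the same strand, whose level was not called different (log2 change 0.29, SE 0.16, adjusted p = 0.259). IBIN, a small peptide induced by several stresses, went from 6, 18 and 15 to 3950, 13606 and 6284 (log2 change 9.08, SE 0.52, adjusted p = 0.000113). CG45045, which shares a locus with CG14322, rose from 7, 9 and 16 to 7120, 24384 and 9668. The antifungal peptide Drosomycin (Drs), a classical target of Toll, stood at 164, 269 and 493 in the controls and 16920, 27185 and 14261 in the mutant libraries (log2 change 6.06, SE 0.41, adjusted p = 0.000196), and WT Ecc15 held 2923, 3102 and 1078. Its relatives split. Drsl6 was listed at 0 in all 6 wild-type libraries and at 50, 29 and 69 in the mutant ones, while Drsl5 ranged from 250 to 1575 in the controls and from 192 to 1605 in the mutants and was not called (adjusted p = 0.987). IM4 was not called either, at 2142, 3243 and 1607 in controls and 2753, 9217 and 4309 in mutants (adjusted p = 0.142), nor was IM14 (adjusted p = 0.15), and PGRP-LB Ecc15 S2 carried the top value of both.

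Recognition genes rose in part. Of 6 amidase PGRPs 5 (83.3%) were called higher, beside 9.65% over all genes (5 with any 1 library left out). Of 11 other PGRPs and GNBPs 6 (54.5%) were called higher (5 to 6 with 1 library left out). PGRP-SC2, an amidase that tunes Imd in the gut, stood at 5, 1 and 7 in control and 4191, 8059 and 5228 in mutant libraries (log2 change 10.26, SE 0.52, adjusted p = 6.35e-05). PGRP-SB1, a secreted amidase, went from 183, 148 and 83 to 10428, 34295 and 16634. Among receptors and co-receptors the main Imd receptor PGRP-LC stood at 559, 647 and 409 in controls and 2452, 4738 and 2462 in mutants (log2 change 2.53, SE 0.28, adjusted p = 0.00177), with 564, 547 and 525 in WT Ecc15, within the range of the controls (log2 difference 2.49, adjusted p = 0.000204). The intracellular receptor PGRP-LE held 538, 636 and 596 in controls and 620, 646 and 585 in mutants and was not called (log2 change 0.07, SE 0.09, adjusted p = 0.68). PGRP-LF, an inhibitor that binds PGRP-LC, rose 27.9-fold (log2 change 4.80, SE 0.30, adjusted p = 0.000164), and PGRP-SA, a circulating sensor upstream of Toll, rose 16.6-fold (log2 change 4.05, SE 0.26, adjusted p = 0.000174). PGRP-SD, a secreted co-sensor, stood at 11627, 17080 and 8372 against 271, 213 and 148, and CG32373, which overlaps it on the same strand, was higher too (log2 change 1.88, SE 0.20, adjusted p = 0.00134).

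The intracellular Imd pathway changed at few points. Of 21 members 4 were called higher and 1 lower (higher: 3 with any 1 library left out; lower: 0 to 1 with 1 library left out, moving over 1.5 times without each library but WT control S1). The calls are 19% and 4.76% of the members, beside 9.65% and 6.26% over all genes. The median log2 change of the members was 0.05, and -0.01 after quantile normalization. Relish (Rel) stood at 1658, 1602 and 1580 in control, 2839, 2778 and 2453 in WT Ecc15 and 11785, 15242 and 11076 in mutant libraries, a 7.79-fold rise over the controls (log2 change 2.96, SE 0.12, adjusted p = 2.50e-05). Nmdmc overlaps Rel on the same strand. The feedback inhibitor pirk went from 112, 53 and 81 to 2059, 2217 and 1433 (log2 change 4.56, SE 0.29, adjusted p = 0.000166). Charon, an ankyrin-repeat protein, rose to 1089, 1217 and 1365 from 645, 642 and 547 (adjusted p = 0.00174). The ubiquitin-conjugating enzyme gene ben fell to 5023, 4680 and 4602 from 5469, 6188 and 5870, a call that was lost without each library in turn except WT control S1.

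Toll, the other main humoral pathway of flies, is switched on by a cascade of circulating proteases that cleave its ligand. Of 18 Toll signalling genes 9 (50%) were called higher and 0 lower (1 at an unadjusted p under 0.05). Over all genes 9.65% were called higher and 6.26% lower. With 1 library left out 4 to 8 were higher, moving over 1.5 times without WT control S3, PGRP-LB Ecc15 S2 or PGRP-LB Ecc15 S3. Of the 9, spz, SPE, psh, Hayan, grass and spirit encode extracellular proteins, and Myd88, cact and dl intracellular ones. The clip-domain serine protease spirit, which acts upstream of Toll, stood at 59, 23 and 22 in the controls and 1629, 1702 and 825 in the mutants (log2 change 5.36, SE 0.44, adjusted p = 0.000477). Among proteases of the same cascade Hayan rose from 91, 81 and 39 to 657, 1635 and 873 and grass from 184, 262 and 142 to 627, 911 and 622. The Toll ligand spz rose 2.62-fold (log2 change 1.39, SE 0.17, adjusted p = 0.00229). Neither the control nor the WT Ecc15 libraries overlapped the mutant ones for spirit, Hayan or grass, and each was higher than in WT Ecc15, with log2 differences of 5.04, 2.70 and 1.56 (adjusted p = 0.000208, 0.00154 and 0.00149). Of 24 serpins, protease inhibitors, 9 (37.5%) were called higher and 1 (4.17%) lower (higher: 7 to 9 with 1 library left out). Spn88Eb stood at 173, 356 and 88 in control and 4021, 5660 and 4535 in mutant libraries (log2 change 4.73, SE 0.45, adjusted p = 0.000889). Spn27A, an inhibitor of melanization and of the Toll cascade, rose 2.73-fold (log2 change 1.45, SE 0.18, adjusted p = 0.00255). Spn85F alone among them was lower, at 5, 6 and 5 against 50, 34 and 79 (log2 change -3.05, SE 0.39, adjusted p = 0.00321).

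The Bomanins, secreted peptides needed for Toll-mediated resistance, were called higher in 9 of 12 genes (75%), beside 9.65% over all genes. The count was 6 to 9 with 1 library left out, and BomS6, BomBc3 and BomT3 were not called (log2 changes 0.83, 1.30 and 1.49). BomS1 stood at 389, 343 and 289 in the controls and 3651, 6278 and 3189 in the mutants, with 589, 329 and 731 in WT Ecc15. BomBc1 went from 30, 27 and 95 to 1130, 1380 and 1147 (log2 change 4.80, SE 0.45, adjusted p = 0.000814). Of 5 thioester-containing proteins, which resemble complement, 4 (80%) were called higher (3 to 4 with 1 library left out). Tep4 rose from 249, 304 and 210 to 5244, 9058 and 5100, with WT Ecc15 at 437, 224 and 241 (log2 difference 4.44, adjusted p = 2.04e-05). Tep1 stood at 30, 30 and 26 in the controls but at 147, 241 and 120 in WT Ecc15 and 91, 284 and 193 in the mutants, so that both exposed groups lay above the controls and their difference was not called (log2 difference 0.08, adjusted p = 0.919).

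Cytokines, stress kinase targets and iron genes followed. The JAK-STAT ligand upd3 was listed at 0, 1 and 0 in the controls, 7, 5 and 4 in WT Ecc15 and 22, 43 and 41 in the mutants. vir-1, a JAK-STAT target, rose 1.76-fold (log2 change 0.81, SE 0.09, adjusted p = 0.00188). Of 15 JAK-STAT and Turandot genes 4 (26.7%) were called higher, beside 9.65% over all genes, and 0 lower (0 at an unadjusted p under 0.05). The higher count was 2 to 3 with 1 library left out, moving over 1.5 times without WT control S1. Members not called included dome, hop, Stat92E, Socs36E, TotA and TotC. TotM, a stress-induced Turandot gene, rose from 63, 114 and 15 to 721, 6498 and 693, its S2 value far above the other mutant libraries (log2 change 4.92, SE 1.02, adjusted p = 0.0201; lost without WT control S1 or WT control S3). Of 15 JNK and AP-1 genes 6 (40%) were called higher and 1 (6.67%) lower, beside 9.65% and 6.26% over all genes (higher: 4 to 6 with 1 library left out). Ets21C, a transcription factor induced by injury, rose from 77, 62 and 78 to 247, 239 and 252, and Mmp1, a matrix protease, rose 2.3-fold (log2 change 1.20, SE 0.18, adjusted p = 0.00628). The ligand egr was the lower member, at 932, 977 and 906 against 1415, 1526 and 1392 (log2 change -0.62, SE 0.07, adjusted p = 0.00185). Transferrin 1 (Tsf1), a secreted iron binder, had the second largest gain in normalized counts after AttC, from 34095, 35708 and 29444 to 155479, 196986 and 135109 (log2 change 2.28, SE 0.15, adjusted p = 0.000194), and WT Ecc15 held 47293, 59011 and 45948. Tsf3 rose 7.9-fold (log2 change 2.98, SE 0.46, adjusted p = 0.00672), and the metal transporters Mvl and Zip99C rose 2.06-fold and 2.23-fold. The ferritin subunits Fer1HCH and Fer2LCH, which store iron, were not called (adjusted p = 0.717 and 0.299). Irc, an immune-regulated catalase, rose from 3992, 3458 and 2552 to 12477, 16167 and 11477 (log2 change 2.01, SE 0.19, adjusted p = 0.000814).

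**Figure D3:**
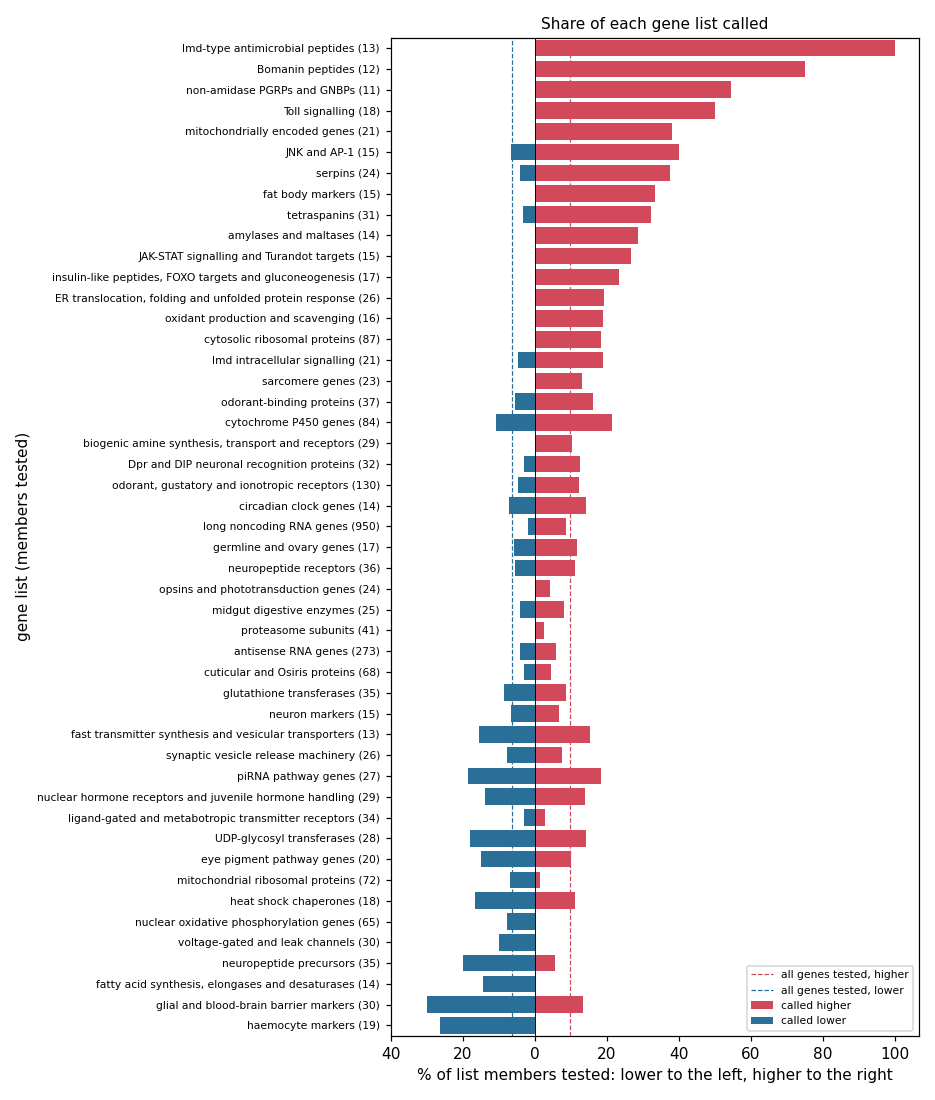
Bars give the percentage of each gene list called higher (red, right) or lower (blue, left), for lists with at least 10 members tested, whose number is in brackets. Dashed lines mark the shares over all genes tested, 9.65% higher and 6.26% lower. The Imd-type peptides reach 100%, and the haemocyte and glial lists have the widest blue bars.

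Many of the sharpest differences lay outside immunity, and there exposed wild-type brains stood near the control levels. The gene e(y)2b, a relative of a transcription coactivator, stood at 84, 105 and 84 in controls, 87, 74 and 92 in WT Ecc15 and 2676, 2331 and 3243 in mutants (log2 change 4.90, SE 0.15, adjusted p = 1.09e-05). It lies on the other strand of Alh, which was not called (log2 change 0.07, SE 0.07, adjusted p = 0.56). CG42697 went from 5, 8 and 5 to 1774, 1549 and 2480, with 8, 3 and 6 in WT Ecc15 (log2 difference 8.25, adjusted p = 1.61e-06), and the gene GEFmeso that overlaps it on the same strand was higher as well (log2 change 1.29, SE 0.09, adjusted p = 0.000244). The noncoding RNA lncRNA:CR43685 rose 8.56-fold, to 5905, 5473 and 7345 from 773, 691 and 706. On the lower side the cytochrome P450 gene Cyp28a5 dropped from 5234, 4625 and 4092 to 147, 172 and 137, while WT Ecc15 held 4408, 4702 and 4133 (log2 difference -4.86, adjusted p = 5.43e-08). plx, a regulator of membrane traffic, stood at 2954, 2816 and 3016 against 8116, 7720 and 7968, and Herc4, a ubiquitin ligase, at 5799, 5665 and 5572 against 14082, 15029 and 15049. Both were tight within groups, with log2 changes of -1.44 and -1.37 (adjusted p = 2.34e-05 and 2.71e-05). The photolyase phr, which repairs DNA damaged by ultraviolet light, fell 3.14-fold, and nkt, a glial immunoglobulin gene, fell 2.11-fold. The genes CG6040, CG9360 and Ady43A, the last of the adenosine kinase family, fell 5.87-fold, 3.89-fold and 4.19-fold.

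The lowest point of all was a transporter. Oatp33Ea, an organic anion transporter, stood at 663, 677 and 824 in the controls, 694, 687 and 699 in WT Ecc15 and 2, 11 and 4 in the mutants (log2 change -6.99, SE 0.48, adjusted p = 0.000232). ZnT33D, a zinc transporter, fell 6.13-fold (log2 change -2.62, SE 0.15, adjusted p = 9.82e-05), and CG31760, which overlaps it on the same strand, fell by less (log2 change -0.51, SE 0.08, adjusted p = 0.00692). asRNA:CR44291 fell from 139, 139 and 183 to 2, 1 and 2, and asRNA:CR44030 from 210, 211 and 186 to 6, 10 and 2. The second lies opposite fuss, which was not called (log2 change 0.13, SE 0.10, adjusted p = 0.427), and without the strand setting reads of the pair cannot be told apart. Among the called genes with the largest losses in normalized counts were MtnA, a metallothionein, at 7286, 6537 and 5001 against 19376, 19407 and 26612 (log2 change -1.80, SE 0.17, adjusted p = 0.000945), Mical, which disassembles actin, at 11690, 10683 and 11503 against 22558, 26400 and 27497 (log2 change -1.17, SE 0.09, adjusted p = 0.000344), and Gabat, the GABA transaminase, at 17755, 18630 and 20223 against 31234, 32311 and 29371 (log2 change -0.72, SE 0.08, adjusted p = 0.00134). CG10433 fell 1.8-fold (log2 change -0.85, SE 0.14, adjusted p = 0.00817). Hsp83, a chaperone, Gs2, the glial glutamine synthetase, and hig, a synaptic matrix protein, were also among them, with log2 changes of -1.18, -0.37 and -0.32. The call of hig was lost without each library in turn, that of Gs2 was lost without each library in turn except WT control S1, and that of Hsp83 was lost without each library in turn except WT control S3.

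**Figure D4:**
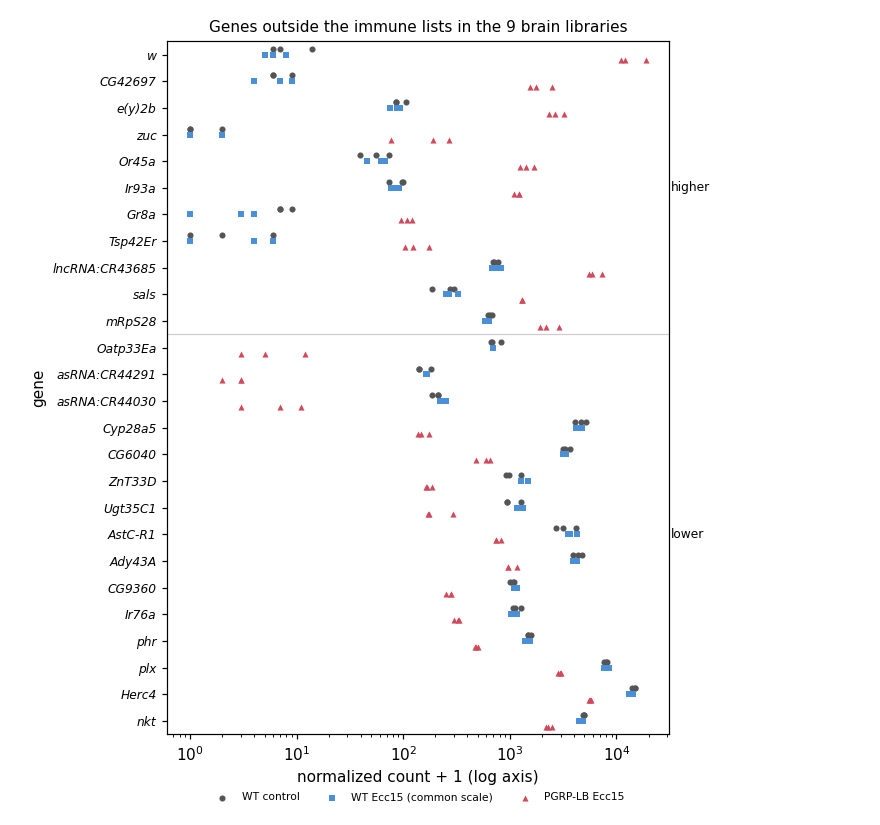
Normalized counts plus 1 (log axis) of genes outside the immune lists, called higher (top) or lower (bottom) in PGRP-LB Ecc15, with 1 point per library. Blue squares (WT Ecc15, common scale) lie with the grey circles (WT control), and the red triangles (PGRP-LB Ecc15) stand apart, from 11128 to 18926 for w and from 2 to 11 for Oatp33Ea before 1 was added.

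Detoxification genes moved both ways. The shares called higher and lower were 21.4% and 10.7% for P450 genes and 14.3% and 17.9% for UDP-glycosyl transferases. Over all genes they were 9.65% and 6.26%. Of 84 cytochrome P450 genes 18 were called higher and 9 lower (higher: 12 to 16 with 1 library left out; lower: 4 to 10 with 1 library left out, moving over 1.5 times without WT control S2 or PGRP-LB Ecc15 S3). Cyp309a2 rose from 9, 20 and 9 to 320, 833 and 358, and Cyp9h1 from 396, 333 and 317 to 1630, 2216 and 1994. Cyp28d1, of the same P450 family as Cyp28a5, rose 1.64-fold while the latter fell 30.4-fold. Of 28 UDP-glycosyl transferases 4 were called higher and 5 lower (higher: 1 to 4 with 1 library left out, moving over 1.5 times without PGRP-LB Ecc15 S1, PGRP-LB Ecc15 S2 or PGRP-LB Ecc15 S3; lower: 3 to 4 with 1 library left out, moving over 1.5 times without each library but WT control S1 and PGRP-LB Ecc15 S2), with Ugt35C1 at 171, 290 and 175 against 944, 1259 and 939 (log2 change -2.33, SE 0.23, adjusted p = 0.000981). Of 35 glutathione transferases 3 (8.57%) were called in each direction, near the shares over all genes (2 to 4 in each with 1 library left out). GstE1 rose 2-fold and its neighbour in name GstE2 fell 1.7-fold (adjusted p = 0.000302 and 0.00118), the groups not overlapping in either. The juvenile hormone epoxide hydrolases, which degrade that hormone, fell together, with Jheh1 at 708, 852 and 603 against 1395, 1797 and 1545, Jheh2 at 1851, 2104 and 1869 against 3537, 3669 and 3488 and Jheh3 at 973, 843 and 964 against 1525, 1654 and 1544. Their adjusted p values were 0.00323, 0.00042 and 0.00143.

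Digestive and metabolic genes included large rises, but most list members were not called. Of 25 midgut enzymes 2 (8%) were called higher, Amy-p and Amy-d, and 1 (4%) lower (0 to 1 with 1 library left out). Over all genes 9.65% were higher and 6.26% lower. Of 14 amylases and maltases 4 (28.6%) were higher, and of 17 insulin and gluconeogenesis genes 4 (23.5%). With 1 library left out these counts were 4 to 5 and 3 to 4. Of 14 fatty acid genes 2 (14.3%) were lower (1 to 3 with 1 library left out) and 0 higher. The amylases Amy-p and Amy-d, near-identical copies whose values are uncertain, rose from 25, 14 and 26 to 1754, 2722 and 1589 and from 98, 134 and 86 to 1786, 3393 and 1722. The maltase Mal-B2 rose 7.38-fold (log2 change 2.88, SE 0.27, adjusted p = 0.00079). bmm, the triglyceride lipase, and InR, the insulin receptor, rose 1.98-fold and 1.42-fold. Pepck2, an enzyme of gluconeogenesis, spread widely in the mutants, at 100, 653 and 234 against 20, 14 and 20 (log2 change 3.73, SE 0.63, adjusted p = 0.00902). The fatty acid elongase Elo68beta fell to 4, 1 and 1 from 49, 91 and 74 (log2 change -4.69, SE 0.49, adjusted p = 0.00134). The serine proteases alphaTry and Jon65Aiii, markers of midgut, stood at 0 to 53 in these 6 libraries.

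Several transcripts of the mitochondrial genome were higher. Of 21 mitochondrially encoded genes 8 (38.1%) were called higher, beside 9.65% over all genes, and 0 lower (1 at an unadjusted p under 0.05). The higher count was 6 to 9 with 1 library left out. Over the whole list 13 log2 changes lay above 0 and 8 below. mt:CoI, a cytochrome oxidase subunit and one of the most abundant transcripts, stood at 122266, 114920 and 136166 in control, 123307, 113845 and 133410 in WT Ecc15 and 233057, 232633 and 210250 in mutant libraries (log2 change 0.86, SE 0.11, adjusted p = 0.00303). mt:ND1 and mt:ND5, subunits of complex I, rose 1.85-fold and 1.63-fold. mt:CoIII rose 1.65-fold and overlaps mt:ATPase6. Of 65 nuclear oxidative phosphorylation genes 0 higher (1 at an unadjusted p under 0.05) and 5 lower were called, and 5 is 7.69%, near the 6.26% over all genes. Their median log2 change was -0.16, and 10 were lower after quantile normalization (lower: 2 to 6 with 1 library left out, moving over 1.5 times without each library but WT control S1 and WT control S3). The lower ones included ND-13B at 1521, 1610 and 1716 against 2233, 2410 and 2121 (log2 change -0.48, SE 0.08, adjusted p = 0.00752). Of 72 mitochondrial ribosomal proteins 5 (6.94%) were called lower (0 to 3 with 1 library left out, moving over 1.5 times without each library), and the 1 higher member, mRpS28, stood at 2187, 1930 and 2889 against 683, 622 and 656 (log2 change 1.82, SE 0.14, adjusted p = 0.000421). Of 87 cytosolic ribosomal proteins 16 (18.4%, beside 9.65% over all genes) were called higher (2 to 26 with 1 library left out, moving over 1.5 times without each library but WT control S3), with RpLP0 at 27870, 29007 and 27879 against 14634, 13049 and 10841 (log2 change 1.15, SE 0.11, adjusted p = 0.000889) and RpS2 rising 1.54-fold. Of 26 genes of protein secretion and folding 5 (19.2%) were called higher (1 to 5 with 1 library left out, moving over 1.5 times without each library but WT control S1), with Atf6 at 4741, 4197 and 3970 against 2730, 2962 and 3077, and WT Ecc15 at 4276, 3754 and 3964, so that both exposed groups lay above the controls (log2 difference 0.10, adjusted p = 0.422 between them).

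Neural lists differed in how many of their genes were called. Of 35 neuropeptide precursors 2 (5.71%) were called higher and 7 (20%) lower, beside 9.65% and 6.26% over all genes (higher: 1 to 3 with 1 library left out, moving over 1.5 times without WT control S2, PGRP-LB Ecc15 S1 or PGRP-LB Ecc15 S2; lower: 3 to 6 with 1 library left out, moving over 1.5 times without each library but WT control S1 and PGRP-LB Ecc15 S2). Of 13 genes of transmitter synthesis and vesicular transport 2 were called in each direction (higher: 0 to 1 with 1 library left out, moving over 1.5 times without each library; lower: 1 to 2 with 1 library left out, moving over 1.5 times without each library but WT control S1 and WT control S3), and of 5 activity-response genes 4 were higher (2 to 4 with 1 library left out, moving over 1.5 times without WT control S2, PGRP-LB Ecc15 S1 or PGRP-LB Ecc15 S3). Of 26 genes of synaptic vesicle release 2 (7.69%) were called in each direction (higher: 0 to 2 with 1 library left out, moving over 1.5 times without PGRP-LB Ecc15 S1 or PGRP-LB Ecc15 S3; lower: 0 to 4 with 1 library left out, moving over 1.5 times without each library but WT control S3 and PGRP-LB Ecc15 S3). Of 34 transmitter receptors 1 (2.94%) was called in each direction (higher: 0 to 3 with 1 library left out, moving over 1.5 times without WT control S3, PGRP-LB Ecc15 S2 or PGRP-LB Ecc15 S3; lower: 0 to 1 with 1 library left out, moving over 1.5 times without each library but WT control S3). Of 30 voltage-gated and leak channels limma called 0 higher (3 at an unadjusted p under 0.05) and 3 (10%) lower. For the genes of transmitter synthesis and vesicular transport the share was 15.4% in each direction. SIFa, a peptide of a few neurons that regulates feeding and mating, stood at 979, 1204 and 1063 in the controls and 357, 497 and 528 in the mutants (log2 change -1.25, SE 0.16, adjusted p = 0.00329). Dh31 fell 1.39-fold and Tachykinin (Tk) rose 1.39-fold. AstC-R1, a receptor of Allatostatin C, stood at 822, 743 and 743 against 2738, 3157 and 4199, with 4274, 3488 and 3630 in WT Ecc15 (log2 difference -2.30, adjusted p = 1.48e-05), whereas AstA-R2, a receptor of Allatostatin A, rose 3.86-fold (log2 change 1.95, SE 0.30, adjusted p = 0.00704). The vesicular acetylcholine transporter gene VAChT, which lies within the locus of ChAT on the same strand, fell to 7548, 7138 and 7427 from 11783, 12096 and 11427 (log2 change -0.68, SE 0.06, adjusted p = 0.000496), while ChAT was not called (log2 change 0.14, SE 0.06, adjusted p = 0.173). Ddc, which makes dopamine and serotonin, rose 1.78-fold (log2 change 0.83, SE 0.11, adjusted p = 0.00408). Of 29 biogenic amine genes 3 (10.3%) were called higher, near the 9.65% over all genes, and 0 lower (2 at an unadjusted p under 0.05). The higher count was 1 to 3 with 1 library left out, moving over 1.5 times without PGRP-LB Ecc15 S2. Members not called included ple, Trh, Tdc2, Tbh and Vmat. The activity-response genes Arc1 and Arc2 rose 6-fold and 2.91-fold, Arc1 from 1202, 750 and 581 to 6159, 4530 and 4060 (log2 change 2.58, SE 0.27, adjusted p = 0.00134). The potassium channel Irk2 and the chloride channel ClC-a fell 1.81-fold and 1.52-fold, and dpr21, a cell surface recognition protein, rose 3.29-fold. The clock gene per, near w on the X, rose 1.7-fold (log2 change 0.77, SE 0.09, adjusted p = 0.00181). Of 14 clock genes 2 (14.3%) were called higher and 1 (7.14%), cry, lower (1 to 2 and 0 to 1 with 1 library left out). The clock genes tim and Clk were not called.

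Several glial genes were lower. Of 30 glial and blood-brain barrier markers 9 were called lower and 4 higher, beside 6.26% and 9.65% of all genes (lower: 6 to 9 with 1 library left out; higher: 2 to 5 with 1 library left out, moving over 1.5 times without PGRP-LB Ecc15 S1 or PGRP-LB Ecc15 S3). Mdr65, an efflux transporter of the barrier, stood at 5040, 6248 and 5217 in control, 5386, 5209 and 5193 in WT Ecc15 and 1702, 2293 and 2517 in mutant libraries (log2 change -1.35, SE 0.15, adjusted p = 0.00191). wrapper, a cortex glia gene, went from 5103, 4610 and 4564 to 2713, 2099 and 2361, and the astrocyte gene alrm fell 1.46-fold (log2 change -0.55, SE 0.09, adjusted p = 0.00788). zyd, a glial calcium exchanger, fell 1.63-fold (log2 change -0.70, SE 0.07, adjusted p = 0.000814). The collagen gene vkg is in both the glial and the haemocyte list and was lower (log2 change -1.01, SE 0.18, adjusted p = 0.0103). The 4 members called higher were Mdr50, Indy, Cont and kune, with log2 changes of 2.17, 0.64, 0.41 and 0.38. Members not called included repo, moody, Eaat1, Gat and Nrx-IV. In these whole-brain pools fewer cells of a type and less RNA per cell cannot be told apart.

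A few chemoreceptor genes differed by large factors. Of 130 odorant, gustatory and ionotropic receptors 16 (12.3%) were called higher and 6 (4.62%) lower, near the 9.65% and 6.26% over all genes (higher: 8 to 14 with 1 library left out, moving over 1.5 times without each library but WT control S1 and WT control S3). Ir93a, which serves humidity and temperature sensing, stood at 72, 99 and 96 in controls and 1229, 1222 and 1090 in mutants (log2 change 3.73, SE 0.15, adjusted p = 2.50e-05), and WT Ecc15 held 90, 75 and 81. Or45a went from 54, 72 and 38 to 1408, 1679 and 1239 and Gr8a, a bitter receptor gene, from 6, 6 and 8 to 107, 94 and 120. Ir76a, an antennal receptor, fell 3.58-fold (log2 change -1.84, SE 0.10, adjusted p = 7.75e-05). Of 37 odorant-binding proteins 6 (16.2%) were called higher and 2 (5.41%) lower (higher: 5 to 7 with 1 library left out; lower: 0 to 2 with 1 library left out, moving over 1.5 times without each library but WT control S1). Obp56g stood at 1, 8 and 4 in controls and 1424, 1461 and 481 in mutants, and WT Ecc15 was split, at 2764, 1 and 3, with S1 above the mutant libraries. Among 31 tetraspanins 10 (32.3%) were called higher (8 to 10 with 1 library left out) and 1 (3.23%) lower. The lower member was Tsp3A (log2 change -0.52), a call lost without PGRP-LB Ecc15 S1, PGRP-LB Ecc15 S2 or WT control S1. Of the 10, 8 carry the names of the 42E gene cluster, among them Tsp42Er at 5, 1 and 0 in controls and 172, 103 and 123 in mutants and Tsp42Eb at 0, 2 and 0 in controls and 16, 25 and 30 in mutants. Of the same cluster Tsp42Ea, Tsp42Ec, Tsp42Ef, Tsp42Ei, Tsp42Ej, Tsp42Ek, Tsp42Ep and Tsp42Eq were not called. The piRNA factor zuc, a nuclease of transposon control in the gonad, was listed at 0, 1 and 0 in controls and 188, 75 and 269 in mutants, while aub, a Piwi protein of the same pathway, fell to 58, 67 and 48 from 171, 142 and 137 (log2 change -1.37, SE 0.21, adjusted p = 0.00618).

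Tissue that dissected brains can carry was followed through its markers. Of 15 fat body markers 5 (33.3%) were called higher, beside 9.65% over all genes, and 0 lower (0 at an unadjusted p under 0.05). The higher count was 3 to 4 with 1 library left out, moving over 1.5 times without each library but WT control S1 and WT control S2. Against WT Ecc15 1 was called higher. Of 6 yolk and female fat body genes limma called 0 higher (1 at an unadjusted p under 0.05) and 0 lower (0 at an unadjusted p under 0.05). The fat body list had a median log2 change of 0.96. The larval storage protein gene Lsp1beta rose from 21, 26 and 7 to 176, 224 and 168 (log2 change 3.49, SE 0.46, adjusted p = 0.0037). Fbp2, a fat body protein gene, was listed at 0 in the controls and at 8, 5 and 9 in the mutants (adjusted p = 0.00503). Obp99b rose from 2, 19 and 7 to 73, 65 and 36, a call lost without each library in turn except WT control S2, and bmm and Apoltp were the other called members (log2 changes 0.99 and 0.96). For the defining markers Lsp2, apolpp and Yp1, none of them called, the groups overlapped. Lsp2 was at 25, 56 and 32 in controls and 8, 225 and 10 in mutants, apolpp at 36760, 41702 and 22615 in controls and 26025, 60941 and 31965 in mutants, and Yp1 at 58508, 56574 and 23315 in controls and 16730, 119662 and 43990 in mutants. PGRP-LB Ecc15 S2 had the highest value of all 6 libraries for Lsp2, apolpp and Yp1 and the highest sum of Imd-type peptides. PGRP-LB Ecc15 S1 lay below every control for Lsp2 and Yp1 but above WT control S3 for apolpp, and its DptA value was 73866 against 25 to 39 in the controls. Whether these markers and the peptide levels go together was not tested.

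Part of the haemocyte list was lower. Of its 19 genes 5 (26.3%) were called lower, beside 6.26% over all genes, and 0 higher (2 at an unadjusted p under 0.05). With 1 library left out 4 to 7 were lower, and against WT Ecc15 9 were called lower. The list summed to 0.108% to 0.153% of the total in mutant libraries. Controls held 0.183% to 0.221% and WT Ecc15 0.224% to 0.29%, both above all mutant libraries. The prophenoloxidases PPO1 and PPO2, which start melanization in crystal cells, fell from 1782, 1591 and 1406 to 140, 549 and 267 and from 2264, 2161 and 2086 to 544, 716 and 635 (log2 change -1.79, SE 0.11, adjusted p = 0.000137 for PPO2). The call of PPO1 was lost without PGRP-LB Ecc15 S3. The defining markers Hml, eater and NimC1 were not called, with Hml at 4474, 5151 and 4702 in controls and 2528, 4814 and 3617 in mutants. WT Ecc15 held 9325, 11879 and 8226 for Hml, above all controls, and also lay above all controls for eater and NimC1. Sarcomere genes had a median log2 change of 1.30, with 3 of 23 (13%, beside 9.65% over all genes) called higher (0 to 5 with 1 library left out, moving over 1.5 times without each library but WT control S1 and WT control S3). Against WT Ecc15 10 were called higher. The sarcomere genes summed to 0.14% to 0.21% of the total in mutant libraries. Controls held 0.0498% to 0.114% and WT Ecc15 0.0498% to 0.0791%, both below all mutant libraries. Mhc, the muscle myosin, stood at 3332, 4783 and 901 in controls and 5045, 11948 and 8126 in mutants and was not called. The opsin gene ninaE varied within groups, at 121551, 144203 and 14249 in the controls and 69744, 49739 and 7643 in the mutants, lowest in S3 of each. The part of such tissue in the levels of peptide, protease and iron genes was not tested.

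**Figure D5:**
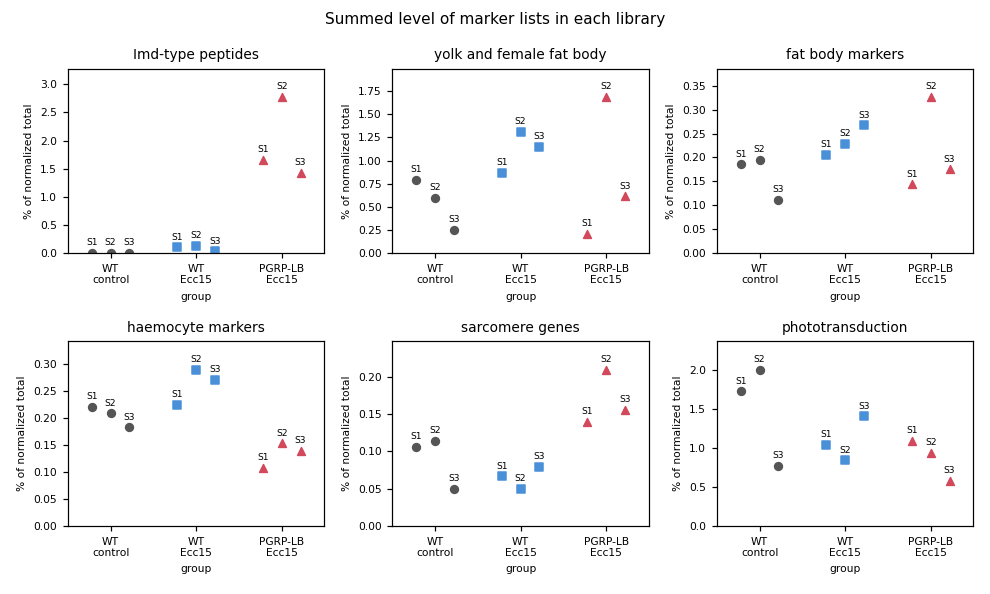
Summed normalized counts of 6 gene lists as a percentage of the library's total, with 1 point per library (S1 to S3) and axes starting at 0. The Imd-type peptides reach 1.43% to 2.78% in PGRP-LB Ecc15, and the yolk list spans 0.208% to 1.69% within that same group. The haemocyte sums of the mutant libraries lie below all others, and their sarcomere sums lie above all others.

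The counts of the other lists are given beside 9.65% higher and 6.26% lower over all genes. Of 950 long noncoding RNAs 83 (8.74%) were called higher and 19 (2%) lower (higher: 40 to 62 with 1 library left out, moving over 1.5 times without each library but WT control S3; lower: 8 to 22 with 1 library left out, moving over 1.5 times without each library but WT control S1). Quantile normalization gave 56 and 50. Of 273 antisense RNAs 16 (5.86%) were called higher and 11 (4.03%) lower, and 10 and 16 after quantile normalization (higher: 5 to 15 with 1 library left out, moving over 1.5 times without each library but WT control S3; lower: 5 to 9 with 1 library left out, moving over 1.5 times without each library but WT control S1 and PGRP-LB Ecc15 S3). Of 18 heat shock genes 2 (11.1%) were called higher and 3 (16.7%) lower (higher: 0 to 2 with 1 library left out, moving over 1.5 times without each library but WT control S2; lower: 1 to 3 with 1 library left out, moving over 1.5 times without each library but WT control S3). Of 68 cuticle genes 3 (4.41%) were called higher and 2 (2.94%) lower (higher: 0 to 1 with 1 library left out, moving over 1.5 times without each library; lower: 0 to 5 with 1 library left out, moving over 1.5 times without each library but PGRP-LB Ecc15 S2), with 1 and 5 after quantile normalization. Of 41 proteasome genes 1 (2.44%) was called higher (0 to 1 with 1 library left out, moving over 1.5 times without PGRP-LB Ecc15 S2 or PGRP-LB Ecc15 S3) and 0 lower (0 at an unadjusted p under 0.05). Of 4 lysozymes, enzymes that cut peptidoglycan, limma called 0 higher (1 at an unadjusted p under 0.05) and 0 lower (0 at an unadjusted p under 0.05).

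By position, the share of genes called was 13.1% on the X, 18% on 2L, 17.1% on 2R, 14.8% on 3L and 15.7% on 3R, beside 15.9% over all genes. The small chromosome 4 had 24.8% called (21 higher and 5 lower of 105 tested), with a median log2 change of 0.16 as deposited and 0.09 after quantile normalization, a region singled out after its values were seen. Against WT Ecc15 its median was 0.00, with 5 genes called higher and 12 lower. Among the 258 other genes within 1 Mb of PGRP-LB 14 were called higher and 27 lower (15.9%), and among the 187 within 1 Mb of w 20 and 14 (18.2%). Lower calls thus outnumbered higher ones near PGRP-LB, whereas over all genes 9.65% were higher and 6.26% lower. Near PGRP-LB the largest rises included sals, an actin regulator of muscle, at 1291, 1304 and 1287 against 271, 300 and 184 (log2 change 2.39, SE 0.18, adjusted p = 0.000302). The lower genes Ugt35C1 and ClC-a and the higher gene Tk, named above, also lie in this window. Ect3, which overlaps Tk on the other strand, was called higher too. Near w, lncRNA:CR43494 was listed at 0 in the controls and at 34, 33 and 58 in the mutants. Positions are from the BDGP6 annotation by gene symbol.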

How the data were processed

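The deposited values are the authors' normalized counts, each library scaled within its table and rounded to whole numbers, so they were treated as a score and no count model was used. HISAT2 version 2, HTSeq, featureCounts and DESeq2 are named in the submitters' processing notes, with no roles. Neither the genome build nor the counting's strand setting is stated in the labels. The kit was a stranded poly(A) one per the labels' protocols.

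Genes with a mean of at least 1 over the 6 libraries were tested with limma 3.58.1 in R 4.3.3 (trend, two-sided, on log2 of the value plus 1, Benjamini-Hochberg adjusted over all genes tested, threshold 0.05). Fold changes are on that scale, which understates changes of low genes. For the comparison with WT Ecc15 all 9 libraries were fitted on one scale, set by the median ratio of the control columns that both tables share. The procedure was tested on simulated data. Nothing in the labels says that pools came from separate cultures, so p-values measure the spread between these libraries. Library depth was estimated from the step between values that 1 read makes.

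Named genes were the 12 higher and 12 lower with the smallest p (groups apart, at least 2-fold, mean of at least 50), the 8 largest gains and losses, up to 4 members per list by p (all members of lists of up to 13), PGRP-LB, w and called genes within 1 Mb of either. Overlapping genes, Spn27A, Spn85F, Gr8a, Tsp42Eb, Apoltp, Mdr50, Indy, kune and Nrx-IV were named after their values were seen. So were several list members given only as not called. The members and the 57 lists were chosen with earlier results of these data known. The lysozyme list was corrected after the tables were read, because its pattern also took in a tRNA synthetase gene. A planned search of promoters for 2 motifs was not run. The deposited fold changes, p-values and filtered sheets were not used here.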

Additional observations from a re-analysis of the deposited data

How the results depend on the processing

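The split between directions depended on scaling. Against WT control quantile normalization gave 1054 higher and 1298 lower genes, rescaling without the 100 most abundant genes 1213 and 1046, limma without trend 959 and 519, and the fit of all 9 libraries 1693 and 1335. Pseudocounts of 0.5 and 8, a mean of at least 10 and no filter gave 1201 to 1304 higher and 782 to 872 lower. With 1 library left out 742 to 1059 genes were higher and 387 to 673 lower. Against WT Ecc15 there were 1302 higher and 942 lower, 1085 and 1403 after quantile normalization, and 802 to 1003 and 558 to 732 with 1 library left out, fewest without WT Ecc15 S2 (802 and 558), and 605 lower without WT Ecc15 S1. The cause of these shifts was not tested.

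Of 354 named genes 292 were called. Of those 192 kept their call in every alternative, 100 lost it in at least 1 and 0 changed sign. Against WT Ecc15 257 of 353 were called, 206 kept it throughout, 51 lost it in at least 1 alternative and 0 changed sign.

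Some list medians changed sign. Quantile normalization took the medians of log2 changes to -0.093 for heat shock genes, -0.0398 for P450 genes, -0.0842 for glutathione transferases, -0.0408 for UDP-glycosyl transferases, -0.0504 for gut genes, -0.0481 for cuticle genes, -0.168 for antisense RNAs and -0.0964 for long noncoding RNAs. With 1 library left out the medians ranged from -0.403 (without PGRP-LB Ecc15 S2) to 0.356 for heat shock genes, from -0.0184 (without the same library) to 0.428 for P450 genes, from -0.277 (without WT control S2; -0.169 without PGRP-LB Ecc15 S2) to 0.368 for gut genes and from -1.73 to 1.13 (without WT control S3) for the lysozymes.

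No paired analysis was possible because the columns carry marks (S1 to S3) that do not match the replicate numbers of the labels. By those numbers PGRP-LB Ecc15 shares none with WT control and 1 with WT Ecc15. Genes with means of a few normalized counts rest on few reads, and fold changes of such genes are limited by the added 1.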
